A study of Mus musculus with 30 samples.

Results

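The genes described here encode the amino acid transporters of 6 solute carrier families in mouse bone marrow-derived macrophages. They were taken by symbol: protein-coding genes beginning Slc1a, Slc6a, Slc7a, Slc36a, Slc38a or Slc43a, without Slc7a2, Slc7a5, Slc7a8 and Slc7a11. This gave 58 genes of the 55414 in the count files. The rule reads symbol and biotype alone, but it was chosen with earlier results of these data known. One of them, Slc7a6os, is taken in by its symbol alone: it lies beside Slc7a6 on the opposite strand and is not a transporter, which leaves 57 transporter genes. Of the 58, 30 had enough reads to be tested and 28 did not. By family the tested and total numbers were 3 of 7 for Slc1a, 7 of 21 for Slc6a, 8 of 12 for Slc7a, 4 of 4 for Slc36a, 6 of 11 for Slc38a and 2 of 3 for Slc43a.

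The macrophages were grown for 7 days from bone marrow of WT mice and of mice with TRα1PV, in which the α1 receptor for thyroid hormone is mutated so that it cannot bind its hormone and represses target genes. Both genotypes were left unpolarized (M0), polarized with 20 ng/mL lipopolysaccharide (LPS) plus 20 ng/mL interferon-γ (M1) or polarized with 20 ng/mL interleukin-4 (M2). Each of the 6 groups held 5 libraries of polyA RNA, labelled as biological replicates, and all groups shared medium with 10% serum and 15 or 20% medium conditioned by L929 cells. Age and sex of the mice, zygosity of the mutation and any pooling of animals are not given in the labels. The p-values thus measure the spread between the 5 libraries of a group, estimated over all 6 groups together. The mutation was carried by the mice, and the labels name no restriction of it to macrophages.

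As background, amino acid transporters set which amino acids enter and leave a cell and its lysosomes. The SLC1 and SLC38 families take up glutamate, alanine, serine and glutamine with sodium, SLC6 members carry taurine, creatine, glycine, GABA or neutral amino acids with sodium and chloride, and SLC7 members carry cationic or exchange large neutral amino acids, many of them bound to the heavy chain encoded by Slc3a2. SLC36 members move small amino acids with protons, often out of lysosomes, and SLC43A2 lets branched-chain and aromatic amino acids pass along their gradient. In macrophages, arginine feeds nitric oxide synthase after inflammatory stimulation and arginase after interleukin-4, and glutamine supports both programmes.

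Reads in genes ranged from 23015952 to 59086252 per library. Levels are given as CPM, which are counts scaled to a common library size, and differences as log2 fold changes ± a standard error derived from edgeR's F statistic. A gene was called where the Benjamini-Hochberg adjusted p of edgeR's quasi-likelihood test over all 15686 tested genes was under 0.05. Klf9, a gene that thyroid hormone induces, checked the genotype labels: it stood at 14.4 to 16.9 CPM in WT and 0.812 to 1.33 CPM in TRα1PV in M0, at 22.4 to 36.7 and 0.538 to 0.988 CPM in M1, and at 59.96 to 82.01 and 11.5 to 17.3 CPM in M2. Thra, which encodes the receptor, was higher in TRα1PV in all 3 states by 1.20, 0.94 and 1.37, a count that does not separate mutant from normal transcripts. Nos2 and Il12b marked M1 (7616 and 399 CPM in WT M1, 2.82 and 0.165 CPM in WT M0), and Arg1 and Retnla marked M2 (403 and 10041 CPM in WT M2, 0.494 and 9.53 CPM in WT M0). All 10 macrophage markers passed the filter, while markers of T and NK cells, mast cells and erythroid cells summed to at most 0.255 CPM in a library. One library stood apart: WT M0 replicate 2 had 4.56% of its gene reads in mitochondrial genes, while the other 4 libraries of its group had 0.921% to 2.07%. Without it, none of the 12 M0 genotype calls among these genes was lost and 2 were gained. The M1 response in WT stayed at 11 higher and 13 lower with no call lost or gained, and the M2 response in WT gave 11 higher and 9 lower (1 lost, 2 gained). The tests of a changed genotype effect gave 5 higher and 5 lower for M1 and 1 higher for M2, each with 1 call gained and none lost.

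Slc6a6 and Slc43a2 made up most of these transcripts. Slc6a6, which encodes the taurine transporter, and Slc43a2, which encodes LAT4, a facilitated carrier of branched-chain amino acids, methionine and phenylalanine, gave 38.02% and 39.02% of the summed CPM of the 58 genes in WT M0, respectively. Per kilobase of exon, Slc6a6 came first and Slc43a2 second in all 6 groups, at 179.8 ± 13.3 and 155 ± 14.003 CPM per kb in WT M0. Slc36a1, a proton-coupled carrier of lysosomes, followed at 30.9 ± 3.77, then Slc38a10 at 20.5 ± 2.25, the creatine transporter gene Slc6a8 at 18.99 ± 2.95 and the lysosomal glutamine carrier gene Slc38a7 at 15.3 ± 1.15 CPM per kb. Slc38a10 and Slc6a8 overlapped in their spread on this scale, as did Slc6a6 and Slc43a2 in WT M0. In M1 the third place went to Slc6a19, at 54.3 ± 3.29 CPM per kb in WT and 46.7 ± 1.54 in TRα1PV.

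The summed level of the 58 genes was 3998 ± 296 CPM (SD, n = 5) in WT M0 and 2804 ± 135 CPM in TRα1PV M0, and the 5 libraries of each genotype did not overlap. In M1 the sums were 3754 ± 49.7 CPM in WT and 3825 ± 129 CPM in TRα1PV, with overlap. In M2 they were 2746 ± 79.1 and 2232 ± 117 CPM, again without overlap. Without Slc6a6 and Slc43a2 the sums were 918, 869, 1074, 1060, 970 and 986 CPM in the order WT M0, TRα1PV M0, WT M1, TRα1PV M1, WT M2, TRα1PV M2, and the genotypes overlapped in each state.

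**Figure D1:**
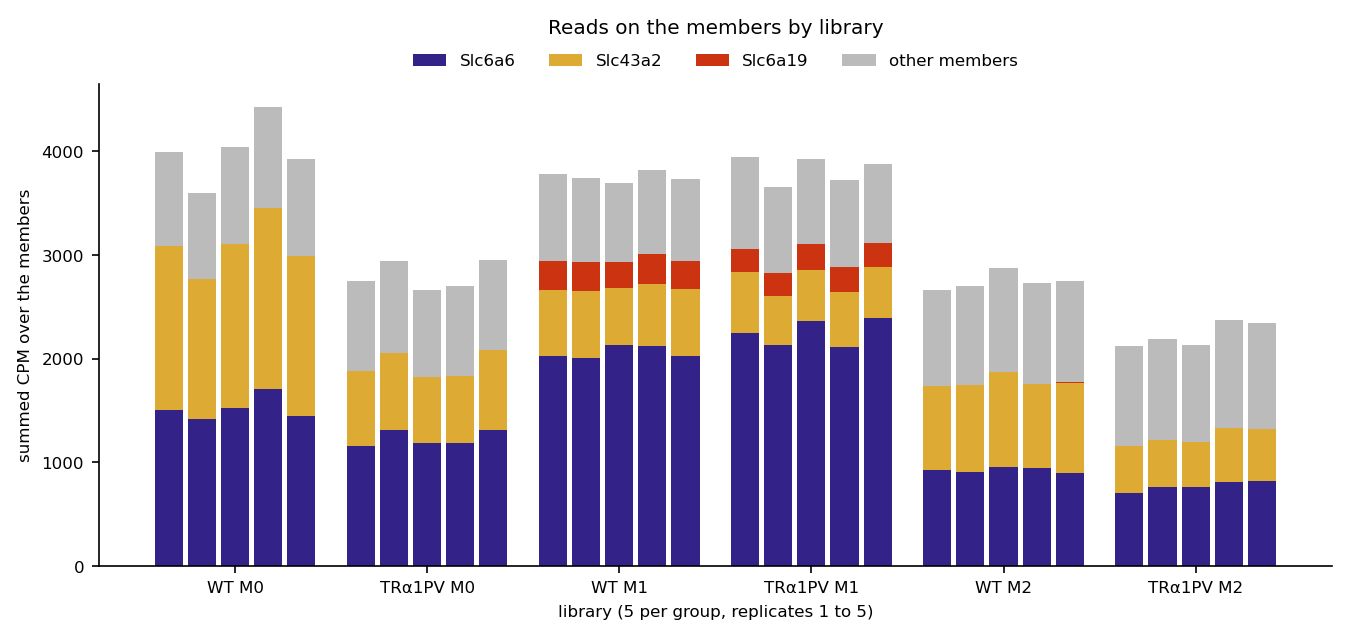
Summed CPM of the 58 genes (vertical axis) in each of the 30 libraries (horizontal axis, 5 per group), with the shares of Slc6a6, Slc43a2 and Slc6a19 in colour. Slc6a6 and Slc43a2 fill most of each bar, Slc6a19 is visible in the M1 libraries alone, and the TRα1PV M0 bars average 2804 CPM against 3998 CPM in WT M0.

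Slc43a2 fell with the mutant receptor in every state. In M0, the levels were 1586, 1349, 1575, 1743 and 1547 CPM in WT replicates 1 to 5 and 717, 747, 636, 647 and 770.1 CPM in TRα1PV replicates 1 to 5. Every TRα1PV library lay below every WT library, and the log2 fold change was -1.15 ± 0.08 (edgeR adjusted p = 2.4e-12), a 2.22-fold difference and the smallest p among the 30 tested members. In M2 the WT libraries held 806, 836, 922, 809 and 876 CPM and the TRα1PV libraries 453, 454, 427, 525 and 505 CPM. Again the groups did not overlap (-0.85 ± 0.08, edgeR adjusted p = 2.19e-09). In M1 the values were 638, 643, 553, 596 and 647 CPM in WT and 588, 469, 499, 534 and 488 CPM in TRα1PV. The highest TRα1PV library lay above the lowest WT library, and the difference was -0.25 ± 0.08 (edgeR adjusted p = 0.0161). All 3 calls held in every alternative run. Gm45606, a non-coding gene on the opposite strand, shares 922 of the 10042 exonic bases of Slc43a2, and it held 20091 reads over the 30 libraries against 866951 for Slc43a2. The sources used here do not state whether counting used the strand.

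The RefSeq promoter windows of Slc43a2 (GRCm38.p6, 250 bases before to 50 after a start site, plus strand) are shown because the gene has the smallest p of the 30 in the M0 genotype comparison. The first is chr11:75531444-75531743, with a match to the κB motif, the site bound by NF-κB, in capitals, at base -226 from the start. The second is chr11:75531862-75532161, with a match in capitals, at base -211, to the STAT6 site, which is TTC, any 4 bases and GAA.
Slc43a2, first start site: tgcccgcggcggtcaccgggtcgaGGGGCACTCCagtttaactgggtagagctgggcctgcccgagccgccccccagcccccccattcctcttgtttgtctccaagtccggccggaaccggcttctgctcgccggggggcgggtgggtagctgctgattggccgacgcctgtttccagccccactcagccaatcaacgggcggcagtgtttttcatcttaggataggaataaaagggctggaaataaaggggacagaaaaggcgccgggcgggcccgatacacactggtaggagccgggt
Slc43a2, second start site: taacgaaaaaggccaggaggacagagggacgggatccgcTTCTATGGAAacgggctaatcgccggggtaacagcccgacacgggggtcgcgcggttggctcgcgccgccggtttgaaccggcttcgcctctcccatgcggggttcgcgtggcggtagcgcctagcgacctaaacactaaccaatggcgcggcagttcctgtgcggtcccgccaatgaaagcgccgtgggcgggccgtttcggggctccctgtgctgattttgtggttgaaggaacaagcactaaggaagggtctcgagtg
Over all 32851 RefSeq promoter windows of this length, on both strands, the κB motif was present in 8.46% and the STAT6 site in 6.95%. Neither Slc43a2 window held the thyroid hormone response element, AGGTCA repeated after any 4 bases (0.0152% of all windows), or a single AGGTCA (16.3%). A match is a description of letters, and the absence of one covers this window alone.

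Over all tested members, the genotype comparison in M0 called 6 genes higher and 6 lower in TRα1PV and left 18 uncalled. That is 40.0% of the 30, while 26.0% of all tested genes were called (14.0% lower and the rest higher). In M1 the counts were 2 higher, 4 lower and 24 uncalled (20.0% of the 30, and 20.0% of all genes, 9.74% higher and 10.2% lower). In M2 they were 5 higher, 5 lower and 20 uncalled (33.3% of the 30, against 13.1% of all genes, 6.14% higher and 6.96% lower). The median log2 fold change of the 30 was 0.04, -0.01 and 0.05 in the 3 states, and that of all genes -0.01, 0.00 and -0.01. The CPM of the genotype groups did not overlap for 5 members in M0, 5 in M1 and 9 in M2 (12.5%, 11.6% and 13.8% of all genes). These 3 comparisons use separate libraries. Slc36a2 was called higher and Slc43a2 and Slc7a6 lower in all 3. The share of all genes called in all 3 was not counted.

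**Figure D2:**
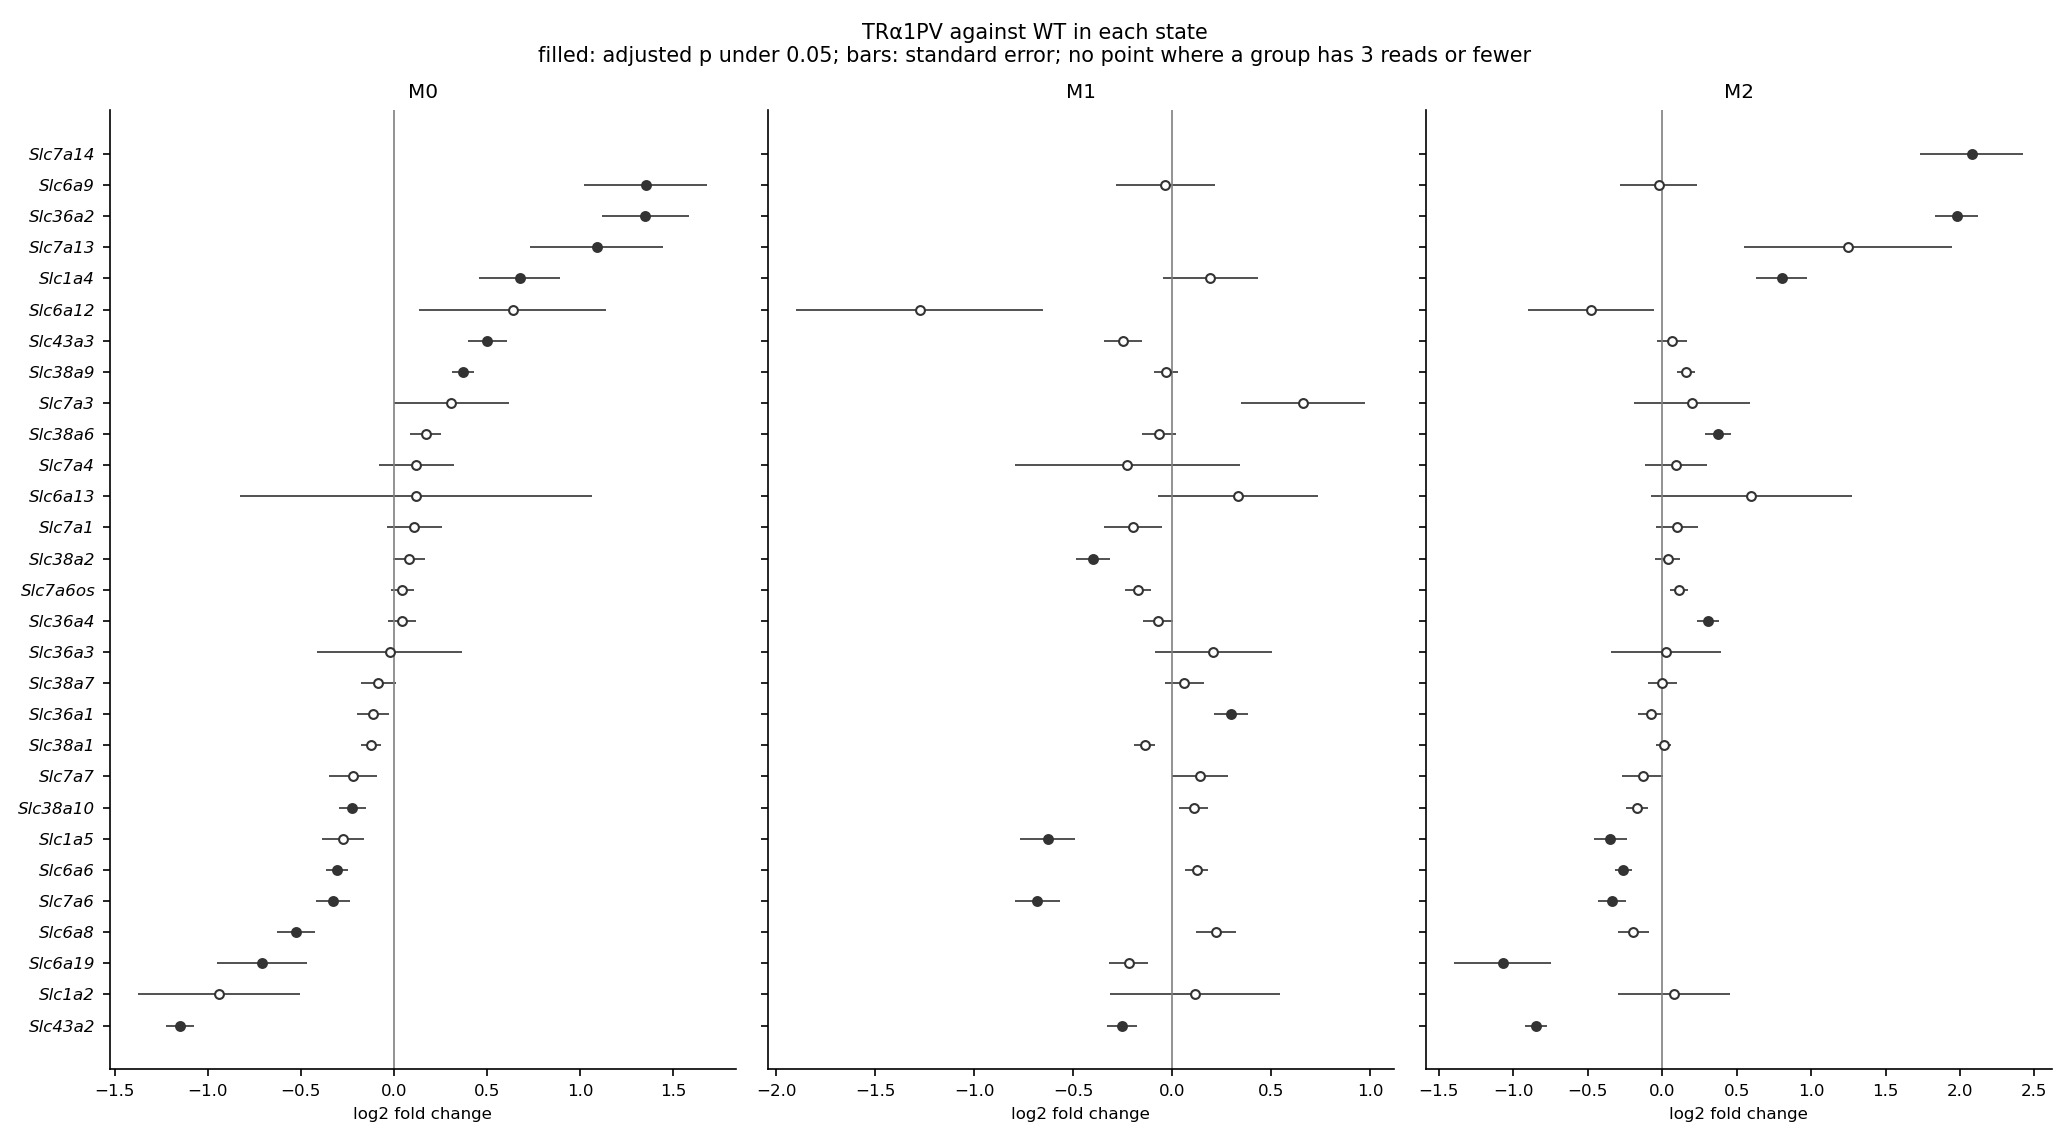
Log2 fold change of TRα1PV against WT (horizontal axis) for tested members (rows) in M0, M1 and M2, with standard errors as bars and filled points for calls. Slc43a2 lies left of 0 in every panel, at -1.15, -0.25 and -0.85, and Slc36a2 lies to the right at 1.35 in M0 and 1.98 in M2.

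Among the SLC6 carriers, taurine and creatine transporter transcripts were lower in TRα1PV M0. Slc6a6 held 1505, 1418, 1526, 1706 and 1446 CPM in WT and 1162, 1310.1, 1189.6, 1186 and 1309 CPM in TRα1PV. The groups did not overlap, and the difference was -0.30 ± 0.06 (edgeR adjusted p = 0.000274). In M2 the WT libraries stood at 928, 912, 954, 943 and 894 CPM and the TRα1PV libraries at 706, 763, 767, 806 and 822 CPM. All TRα1PV libraries were the lower ones there too (-0.26 ± 0.06, edgeR adjusted p = 0.00284), whereas in M1 the difference was 0.12 ± 0.06 and not called (edgeR adjusted p = 0.135). Slc6a8, which takes up creatine, held 106, 72.6, 103, 112 and 100.2 CPM in WT M0 and 59.6, 64.5, 65.4, 82.5 and 71.2 CPM in TRα1PV M0. WT replicate 2 lay among the TRα1PV values and the other WT libraries lay above them (-0.53 ± 0.10, edgeR adjusted p = 0.000311). The creatine transporter gene was not called in M1 (0.22 ± 0.10) or M2 (-0.19 ± 0.10). Slc6a9, which encodes the glycine transporter GlyT1, was low in M0 and higher in TRα1PV, at 0.559 ± 0.289 CPM against 0.216 ± 0.140 CPM (1.35 ± 0.33, edgeR adjusted p = 0.00302). Its M0 groups overlapped, and in M1 and M2 its differences were -0.04 and -0.02. Slc6a19, a carrier of neutral amino acids best known from gut and kidney epithelium, was lower in TRα1PV at trace levels in M0 (0.310 ± 0.0944 against 0.523 ± 0.132 CPM, -0.71 ± 0.24, edgeR adjusted p = 0.0314) and in M2 (0.170 ± 0.107 against 0.362 ± 0.146 CPM, -1.07 ± 0.32, edgeR adjusted p = 0.0278). Both calls were lost in several alternatives. The M0 call ended on leaving out any 1 of WT M0 replicates 1, 4 and 5 and TRα1PV M0 replicates 2 to 5 (edgeR adjusted p up to 0.111), and the M2 call without WT M2 replicate 2 or 5 or TRα1PV M2 replicate 1, 2 or 4 (up to 0.138). The M0 call was also lost with M0 libraries alone (0.0838), by limma-voom (0.0757) and when each library's fraction of reads outside genes entered the fit (called the covariate below; 0.0695), and the M2 call with M2 libraries alone (0.0862).

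Among the SLC7 carriers, Slc7a6 was lower in TRα1PV in each state. It encodes y+LAT2, an exchanger of cationic for neutral amino acids. The M1 libraries held 3.28, 3.06, 2.74, 2.93 and 3.79 CPM in WT and 2.19, 1.77, 2.002, 1.93 and 1.94 CPM in TRα1PV. These groups did not overlap, and the difference was -0.68 ± 0.11 (edgeR adjusted p = 8.32e-05). In M2 the values were 12.6, 12.3, 12.8, 13.5 and 11.6 CPM in WT and 10.04, 10.2, 8.67, 10.96 and 9.72 CPM in TRα1PV, without overlap (-0.34 ± 0.09, edgeR adjusted p = 0.0145, and 0.0572 without TRα1PV M2 replicate 3). In M0 they were 11.95, 8.32, 11.8, 12.96 and 11.6 CPM and 9.52, 8.78, 8.77, 9.59 and 8.48 CPM. WT replicate 2 was the lowest of these 10 libraries, and the difference was -0.33 ± 0.09 (edgeR adjusted p = 0.00923). That M0 call was lost when M0 libraries alone were fitted (edgeR adjusted p = 0.0676) and with the covariate (0.113). The neighbouring gene Slc7a6os was not called in any state (0.05, -0.17 and 0.11).

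The other SLC7 genotype calls were in genes of very low level. Slc7a14 held 0.193, 0.0581, 0.248, 0.120 and 0.107 CPM in WT M2 and 0.518, 0.814, 0.770, 0.455 and 0.494 CPM in TRα1PV M2. The TRα1PV libraries were all higher (2.08 ± 0.34, edgeR adjusted p = 0.000299), from 23 and 118 reads per group. No library outside TRα1PV M2 had more than 7 reads of Slc7a14, so it passed the filter through that group alone. The direction of this call, counted among the 5 higher in M2, is thus bound to the filter. Slc7a13, a carrier of acidic amino acids and cystine of the kidney, stood at 0.921 ± 0.346 CPM in TRα1PV M0 and 0.423 ± 0.212 CPM in WT M0 (1.09 ± 0.36, edgeR adjusted p = 0.0281). Its groups overlapped, and the call ended on leaving out any 1 of WT M0 replicates 1, 3, 4 and 5 and TRα1PV M0 replicates 1 and 5 (edgeR adjusted p up to 0.0844), with M0 libraries alone (0.0553) and with the covariate (0.0679). The arginine carrier gene Slc7a1 was not called between genotypes (0.11 ± 0.15, -0.20 ± 0.15 and 0.10 ± 0.14 in M0, M1 and M2), nor was Slc7a7, which encodes y+LAT1 (-0.22 ± 0.13, 0.14 ± 0.14 and -0.13 ± 0.14). Slc7a3 and Slc7a4 were not called either, with differences of 0.31, 0.66 and 0.20 for Slc7a3 and 0.12, -0.23 and 0.09 for Slc7a4.

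Slc1a5 and Slc38a2 were lower in TRα1PV in M1, the only calls there among the 3 tested SLC1 and 6 tested SLC38 members. Slc1a5, which encodes the glutamine exchanger ASCT2, held 5.91, 7.19, 5.17, 4.56 and 5.61 CPM in WT M1 and 3.26, 4.36, 4.18, 3.66 and 2.96 CPM in TRα1PV M1. Every TRα1PV library was lower (-0.63 ± 0.14, edgeR adjusted p = 0.00171). Slc38a2, which encodes the sodium-coupled glutamine and alanine carrier SNAT2, held 31.9, 32.95, 31.8, 33.3 and 33.6 CPM in WT M1 and 25.9, 26.2, 21.9, 25.4 and 24.7 CPM in TRα1PV M1. Here too the groups did not overlap (-0.40 ± 0.09, edgeR adjusted p = 0.00164), while in M0 and M2 Slc38a2 differed by 0.08 ± 0.08 and 0.04 ± 0.08 without a call. In M2 Slc1a5 held 50.7, 51.8, 49.6, 45.01 and 55.3 CPM in WT and 46.02, 38.9, 35.2, 40.7 and 37.6 CPM in TRα1PV. These groups overlapped by 1 library each (-0.35 ± 0.11, edgeR adjusted p = 0.0388), and the call ended without any 1 of WT M2 replicates 1, 2, 3 and 5 or TRα1PV M2 replicates 2, 3, 4 and 5 (edgeR adjusted p up to 0.108), with no filter (0.0546) and with the covariate (-0.23, 0.128). In M0 Slc1a5 was not called (28.01, 19.04, 27.4, 31.4 and 27.7 CPM in WT and 24.9, 25.4, 19.7, 19.6 and 21.1 CPM in TRα1PV, -0.27 ± 0.11, edgeR adjusted p = 0.0761). Without WT M0 replicate 2, its lowest WT library, Slc1a5 was called lower (edgeR adjusted p = 0.00472), as it was without TRα1PV M0 replicate 2 (0.0428).

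Slc1a4, which encodes the alanine, serine and cysteine exchanger ASCT1, went the other way. In M2 it held 1.77, 2.67, 2.32, 2.16 and 2.34 CPM in WT and 3.08, 3.96, 3.996, 3.77 and 4.80 CPM in TRα1PV. All TRα1PV libraries were higher (0.80 ± 0.17, edgeR adjusted p = 0.0019). In M0 the values were 0.453, 0.281, 0.393, 0.531 and 0.491 CPM in WT and 0.495, 0.681, 0.827, 0.717 and 0.693 CPM in TRα1PV, with overlap (0.68 ± 0.22, edgeR adjusted p = 0.0222, and 0.0742 without TRα1PV M0 replicate 3 or 0.0518 with M0 libraries alone). In M1 its difference was 0.19 ± 0.24 and not called. The glutamate carrier gene Slc1a2, at 0.187 ± 0.101 CPM in WT M0, was not called in any state (-0.94, 0.11 and 0.08), nor was Slc38a1, a glutamine carrier gene (-0.12 ± 0.05, -0.14 ± 0.05 and 0.01 ± 0.05).

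Slc36a2, Slc38a9, Slc38a6, Slc36a4 and Slc36a1 were each higher in TRα1PV in at least 1 state. Slc36a2, which encodes PAT2, a carrier of glycine and proline, held 0.255, 0.230, 0.221, 0.243 and 0.276 CPM in WT M0 and 0.743, 0.419, 0.635, 0.574 and 0.776 CPM in TRα1PV M0. Every TRα1PV library was higher (1.35 ± 0.23, edgeR adjusted p = 7.59e-05). In M2 the WT libraries held 3.40, 5.31, 5.63, 4.35 and 4.19 CPM and the TRα1PV libraries 13.3, 20.2, 18.5, 15.3 and 22.4 CPM. The groups were again apart (1.98 ± 0.14, edgeR adjusted p = 2.57e-11), a 3.94-fold difference. In M1 the gene was near 0, with 1 read in the WT group and 13 in the TRα1PV group, a ratio of 12.9 (95% exact interval 1.94 to 548, counting error only; edgeR adjusted p = 0.0059). The TRα1PV M1 libraries held 0.0717, 0.0786, 0.107, 0.0756 and 0.123 CPM and the only WT M1 library with a read 0.0373 CPM, so these groups did not overlap.

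Slc38a9, which encodes the lysosomal arginine sensor of the kinase complex mTORC1, held 58.1, 70.6, 63.6, 57.1 and 63.97 CPM in WT M0 and 82.9, 78.8, 87.7, 77.7 and 78.3 CPM in TRα1PV M0. The groups did not overlap (0.37 ± 0.06, edgeR adjusted p = 3.4e-05). It was not called in M1 (-0.03 ± 0.06) or M2 (0.16 ± 0.06). In M2, Slc38a6 held 49.3, 48.2, 52.2, 57.2 and 44.8 CPM in WT and 58.1, 64.2, 71.5, 64.4 and 67.9 CPM in TRα1PV. Each TRα1PV library was higher (0.37 ± 0.08, edgeR adjusted p = 0.00343). Slc36a4, a proton-independent carrier of tryptophan and proline, was higher in TRα1PV M2 as well, at 101 ± 7.24 CPM against 81.8 ± 7.21 CPM without overlap (0.31 ± 0.08, edgeR adjusted p = 0.0069). Slc36a1, the neighbour of Slc36a2 on chromosome 11, was higher in TRα1PV in M1 (156, 135, 141, 143 and 113 CPM, against 125, 109, 98.4, 120.5 and 109 CPM in WT). These ranges overlapped (0.30 ± 0.09, edgeR adjusted p = 0.0145), and the call ended without TRα1PV M1 replicate 1 (0.0594) or WT M1 replicate 3 (0.0564). Slc36a3, the third gene of that cluster, was not called in any state (-0.02, 0.21 and 0.02), nor was Slc38a7 (-0.08, 0.06 and 0.00). Slc38a10 was lower in TRα1PV M0 (113 ± 6.15 against 132 ± 14.5 CPM, -0.22 ± 0.07, edgeR adjusted p = 0.0249). That call ended on leaving out any 1 of WT M0 replicates 1 and 4 and TRα1PV M0 replicates 3 and 4 (edgeR adjusted p up to 0.109), with no filter (0.0568), with M0 libraries alone (0.0752) and with the covariate, where the value was -0.12 (0.237).

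Slc43a3, whose product carries purine bases rather than amino acids, held 5.95, 5.74, 6.26, 6.44 and 6.50 CPM in WT M0 and 8.24, 7.29, 9.42, 11.2 and 7.35 CPM in TRα1PV M0. All TRα1PV libraries were higher (0.50 ± 0.10, edgeR adjusted p = 0.000691), opposite in direction to its family member Slc43a2. It was not called in M1 (-0.25 ± 0.10) or M2 (0.06 ± 0.10).

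Members without a genotype call were called in some alternatives. In M0 they included Slc38a1, lower with the covariate (edgeR adjusted p = 0.0202) or without WT M0 replicate 1 (0.0338), and Slc38a6, higher without WT M0 replicate 2 (0.0418). Slc7a4 was higher with the covariate (0.54, edgeR adjusted p = 0.0388), and Slc6a12 without WT M0 replicate 3 (1.63, 0.0276). In M1 Slc38a1 was called lower by DESeq2 (DESeq2 adjusted p = 0.0478), with the replicate block (0.0409), with the covariate (0.0123) and without WT M1 replicate 1 (0.0165). Slc43a3 was lower there by limma-voom (adjusted p = 0.0464), with the block (0.0483), with the covariate (0.0257), without TRα1PV M1 replicate 1 (0.028) and without WT M1 replicate 1 (0.039). With the covariate, Slc6a8 (0.0245) and Slc7a3 (0.0412) were higher in M1 and Slc7a6os was lower (0.0248). Slc6a8 was also called without WT M1 replicate 1 (0.0358), and Slc7a6os without TRα1PV M1 replicate 4 (0.0231) or WT M1 replicate 3 (0.0299). In M2, with M2 libraries alone, Slc38a10 was called lower (0.0123) and Slc38a9 higher (0.0414), the latter also without WT M2 replicate 4 (0.0401).

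Markers of other cells moved with genotype in the same libraries. Inflammatory monocyte markers summed to 503 to 589.7 CPM in WT M0 and 1058 to 1306 CPM in TRα1PV M0, with 4 of 7 tested called higher and none lower. In M2 the ranges were 73.996 to 118 and 157 to 203 CPM (2 higher, 1 lower), and in M1 297 to 379.5 and 375 to 495 CPM (2 higher). No marker of this list was without reads in any group, and Ly6c2, which defines these cells, averaged 2.61 CPM in WT M0 and 4.88 CPM in TRα1PV M0. Granulocyte and precursor markers were higher for 10 and lower for 1 of 11 tested in M0 (119.5 to 270.0 CPM in WT, 182 to 371 CPM in TRα1PV), 1 and 1 in M1, and 7 and 1 in M2. Fibroblast markers were lower for 7 of 7 tested in M0 (6.60 to 19.8 CPM against 1.71 to 2.88 CPM), 4 of 7 in M1 and 5 of 7 in M2. Megakaryocyte and platelet markers were higher for 2 of 4 tested in M0 and M1 and 1 of 4 in M2 (156 to 218 CPM in WT M0, 221 to 379 CPM in TRα1PV M0), with no read of Gp1bb. Of 7 B cell markers only Cd79b was tested, and it was higher in TRα1PV in M0 and M1. The part of these cells in the genotype differences above was not tested. In bulk libraries, fewer cells of a type and less RNA per cell cannot be told apart.

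**Figure D3:**
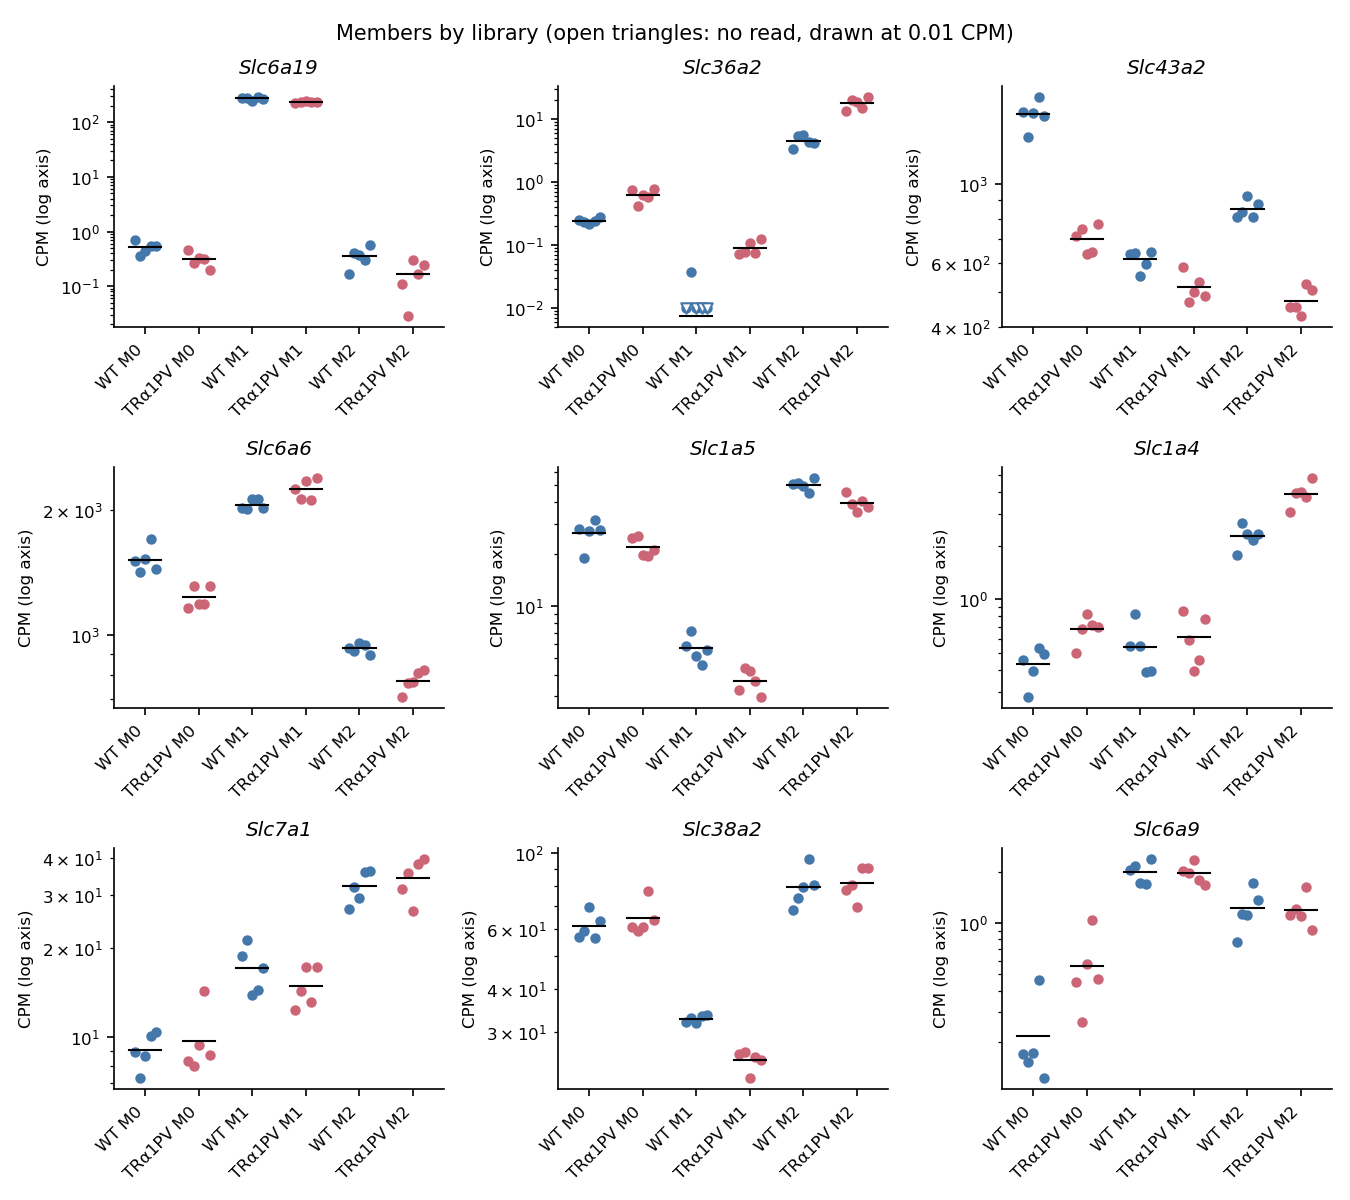
Levels in CPM (vertical axes, logarithmic) of 9 members in the 30 libraries, with blue points for WT, red for TRα1PV, bars for group means and open triangles for libraries with no read. Slc6a19 rises from under 1 CPM in M0 to 224 CPM or more in every M1 library, Slc36a2 is highest in M2, and Slc43a2 is highest in WT M0.

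With LPS and interferon-γ, a gut and kidney amino acid carrier appeared in both genotypes while the exchanger genes Slc1a5, Slc7a6 and Slc7a7 fell. In WT, 11 of the 30 members were higher and 13 lower in M1 than in M0 (80.0% called, against 79.6% of all genes, 39.4% higher and 40.2% lower). In TRα1PV, 11 were higher and 14 lower (83.3%, against 80.7% of all genes, 40.0% higher and 40.7% lower). The shares called were thus near those of all genes. Both genotypes shared 9 of the increases (81.8% of each list) and 12 of the decreases (92.3% of the WT list and 85.7% of the TRα1PV list). The same sharing was not counted over all genes, so these shares cannot be read as particular to the members. By family, 6 of 7 tested SLC6 members rose and none fell in either genotype. Of 8 tested SLC7 members, 5 fell in each genotype, the non-transporter Slc7a6os among them, while 1 rose in WT and 2 in TRα1PV. Several members counted here, Slc6a13, Slc36a3 and Slc7a13 among them, passed the filter mainly through the libraries in which they were high. The direction of their calls is thus bound to the filter. The groups did not overlap for 22 members in WT and 20 in TRα1PV (61.8% and 70.1% of all genes). The median log2 fold change was 0.09 in WT and -0.19 in TRα1PV, and -0.02 over all genes in both. M1 and M2 are each set against the same M0 libraries.

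Slc6a19 had the most marked increase of all tested members. It held 0.708, 0.357, 0.442, 0.553 and 0.552 CPM in WT M0 and 279, 282, 248, 289 and 262 CPM in WT M1. In TRα1PV it held 0.450, 0.262, 0.325, 0.319 and 0.194 CPM in M0 and 224, 230.4, 245, 237 and 233 CPM in M1. Every M1 library was far above every M0 library, by 9.03 ± 0.16 in WT and 9.51 ± 0.16 in TRα1PV (edgeR adjusted p = 1.58e-28 and 1.81e-28), which is 521-fold and 731-fold. In M1 all 5 TRα1PV libraries lay below the 5 WT libraries, but the genotype difference of -0.22 ± 0.10 was not called (edgeR adjusted p = 0.115). It was called with M1 libraries alone in the fit (edgeR adjusted p = 0.021), by limma-voom (adjusted p = 0.028) and by DESeq2 (adjusted p = 0.00207). The RefSeq promoter window of this gene (GRCm38.p6, chr13:73692587-73692886, minus strand) is shown because of that rise, with a match to the STAT6 site in capitals at base -199. It held no match to the core bound by interferon regulatory factors, GAAA repeated after any 2 bases (3.44% of all windows), or to the κB motif.
Slc6a19: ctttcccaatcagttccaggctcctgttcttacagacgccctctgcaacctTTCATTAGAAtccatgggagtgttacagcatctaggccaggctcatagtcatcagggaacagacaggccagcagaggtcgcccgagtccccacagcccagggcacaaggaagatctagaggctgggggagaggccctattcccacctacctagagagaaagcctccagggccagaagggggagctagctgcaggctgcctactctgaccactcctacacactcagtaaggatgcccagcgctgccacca
The neighbouring Slc6a18 on chromosome 13, a related kidney carrier gene, had at most 2 reads in any library.

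Other SLC6 members rose as well. Slc6a6 held 2024, 2011, 2134, 2124 and 2029.9 CPM in WT M1 and 2247, 2132, 2360.3, 2113 and 2394 CPM in TRα1PV M1. All M1 libraries lay above the M0 values given above, by 0.44 ± 0.06 in WT and 0.87 ± 0.06 in TRα1PV (edgeR adjusted p = 5.37e-08 and 1.9e-14). Slc6a8 held 183, 146, 133, 148 and 147 CPM in WT M1 and 186, 173, 191, 167 and 163 CPM in TRα1PV M1. These too were all above M0 (0.61 ± 0.10 and 1.36 ± 0.10). The glycine transporter gene Slc6a9 reached 1.998 ± 0.292 and 1.95 ± 0.252 CPM (3.13 ± 0.31 and 1.74 ± 0.27). Slc6a13, which encodes the GABA transporter GAT2, rose at trace level, by 3.94 ± 0.63 and 4.15 ± 0.57 to 0.448 ± 0.217 and 0.562 ± 0.250 CPM. It held 6 to 25 reads in M1 libraries and at most 6 in the others. Slc6a13 thus passed the filter through M1 alone, and its direction is bound to the filter. Its neighbour Slc6a12, a betaine and GABA carrier gene, was not called (0.76 ± 0.54 in WT and -1.15 ± 0.59 in TRα1PV). Without WT M0 replicate 3 the WT value was 1.76 and called (edgeR adjusted p = 0.00581), as it was by limma-voom (1.48, adjusted p = 0.0267). The TRα1PV decrease was called without TRα1PV M0 replicate 5 (-1.33, edgeR adjusted p = 0.0348) or TRα1PV M1 replicate 1 (-1.51, 0.0396).

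Slc43a3 rose from the M0 values above to 34.02, 37.2, 36.3, 44.96 and 40.7 CPM in WT M1 and 38.7, 30.4, 27.6, 35.4 and 30.6 CPM in TRα1PV M1. No M1 library overlapped M0 (2.64 ± 0.11 and 1.89 ± 0.10, edgeR adjusted p = 5.53e-20 and 8.08e-17). Slc7a1, which encodes the arginine carrier CAT1, held 8.95, 7.27, 8.67, 10.1 and 10.4 CPM in WT M0 and 18.7, 21.2, 13.9, 14.4 and 17.1 CPM in WT M1. In TRα1PV it held 8.31, 8.02, 9.39, 14.3 and 8.71 CPM in M0 and 12.3, 14.3, 17.2, 13.1 and 17.2 CPM in M1. It rose in both (0.91 ± 0.15 and 0.60 ± 0.15, edgeR adjusted p = 2.69e-06 and 0.000538), without overlap in WT and with TRα1PV M0 replicate 4 inside the M1 range. Slc36a3 rose at low level, to 0.487 ± 0.0840 and 0.564 ± 0.133 CPM (1.95 ± 0.35 and 2.18 ± 0.33). Its M1 libraries held 10 to 20 reads and the other libraries at most 13, so it passed the filter mainly through M1. The direction of this rise is thus bound to the filter. Small increases were called in 1 genotype alone for Slc36a4 in WT (0.22 ± 0.08), Slc38a9 in WT (0.23 ± 0.06) and, in TRα1PV, Slc1a2 (1.23 ± 0.44) and Slc7a3 (0.74 ± 0.30). The Slc1a2 call ended without TRα1PV M1 replicate 5 (edgeR adjusted p = 0.0528) and the Slc7a3 call without TRα1PV M1 replicate 2 (0.141). With the covariate both were lost, Slc1a2 at 0.46 (edgeR adjusted p = 0.452) and Slc7a3 at 0.15 (0.741). The Slc36a4 call was lost with WT M0 and WT M1 alone in the fit (0.0603). Slc1a4 was not called in either genotype (0.33 and -0.16).

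Slc1a5, Slc7a6, Slc43a2, Slc38a2 and Slc7a7 fell in M1 in both genotypes. From the values above, Slc1a5 changed by -2.23 ± 0.13 in WT and -2.59 ± 0.13 in TRα1PV. Slc7a6 changed by -1.84 ± 0.10 and -2.20 ± 0.11, and Slc43a2 by -1.34 ± 0.08 and -0.45 ± 0.08. For each of these 3 genes no M1 library overlapped M0 in either genotype. Slc38a2 held 56.8, 59.1, 69.5, 56.4 and 63.1 CPM in WT M0 and 60.6, 59.3, 60.9, 77.5 and 63.9 CPM in TRα1PV M0. Its M1 values were all lower (-0.90 ± 0.09 and -1.38 ± 0.09, edgeR adjusted p = 8.71e-11 and 4.76e-15). Slc7a7, which encodes the y+LAT1 exchanger whose loss in people causes lysinuric protein intolerance, held 20.7, 18.6, 26.4, 28.4 and 24.4 CPM in WT M0 and 5.77, 9.17, 7.98, 7.45 and 8.69 CPM in WT M1. In TRα1PV it held 19.6, 20.7, 19.3, 18.3 and 24.1 CPM in M0 and 10.1, 8.29, 7.97, 7.90 and 8.73 CPM in M1. The M1 libraries were all lower (-1.60 ± 0.14 and -1.24 ± 0.14, edgeR adjusted p = 7.78e-12 and 1.45e-09). Its exons share 232 bases with Oxa1l on the opposite strand, which held 49752 reads over the libraries against 14897 for Slc7a7.

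Further decreases in both genotypes were those of Slc7a4 (from 2.27 ± 0.749 to 0.1004 ± 0.0272 CPM in WT, -4.45 ± 0.33, and -4.80 ± 0.33 in TRα1PV), Slc7a6os (-0.99 ± 0.06 and -1.21 ± 0.06), Slc38a7 (-0.83 ± 0.10 and -0.68 ± 0.10) and Slc38a1 (-0.28 ± 0.05 and -0.30 ± 0.05). Slc36a1 held 180.1, 142, 183, 198 and 166 CPM in WT M0 and 178, 178, 149, 138 and 161 CPM in TRα1PV M0. It fell in WT (-0.63 ± 0.09, edgeR adjusted p = 9.98e-08), where no M1 library overlapped M0, and in TRα1PV (-0.22 ± 0.09, edgeR adjusted p = 0.0187), where the groups overlapped. The TRα1PV call ended without TRα1PV M0 replicate 1 (0.0768) or 2 (0.0744) or TRα1PV M1 replicate 5 (0.0835). Slc36a2 fell to 1 read in WT M1, lower by a ratio of 33.8 (95% exact interval 5.78 to 1364, counting error only), and changed by -2.72 ± 0.31 in TRα1PV. Slc7a13 had no read in any M1 library, at least 19.4-fold lower than M0 in WT and at least 39.6-fold lower in TRα1PV, against a floor of 3 reads over the group. It passed the filter through M0 libraries alone, so the direction of this fall is bound to the filter. Slc38a10 fell in WT (-0.48 ± 0.07) and was not called in TRα1PV (-0.15 ± 0.07). Slc38a6 (-0.30 ± 0.09) and Slc38a9 (-0.17 ± 0.06) fell in TRα1PV, and Slc38a6 was not called in WT (-0.06 ± 0.09). The Slc38a9 decrease was lost without TRα1PV M0 replicate 3 (edgeR adjusted p = 0.0739), and its value was 0.00101 (0.989) with the covariate, where Slc38a6 too was lost (-0.07, 0.495). Slc38a10 was called lower in TRα1PV with the covariate (-0.31, edgeR adjusted p = 0.00146), with the compared groups alone (0.0455), with the block (0.0438) and without TRα1PV M1 replicate 1 (0.00942).

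In the same M1 libraries all 11 tested granulocyte markers were lower than in M0 in both genotypes, from 119.5 to 270.0 CPM in WT M0 to 12.005 to 27.6 CPM in WT M1, and Elane had no read in either M1 group. The macrophage markers summed to 29309 to 33998 CPM in WT M0 and 8857 to 10414 CPM in WT M1, with 3 of 10 higher and 6 lower in WT and 3 higher and 5 lower in TRα1PV. Dendritic cell markers rose to 608 to 866 CPM in WT M1 from 25.9 to 65.6 CPM in WT M0 (6 of 8 higher, 2 lower), with no read of Siglech. Their part in the M1 changes was not tested.

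**Figure D4:**
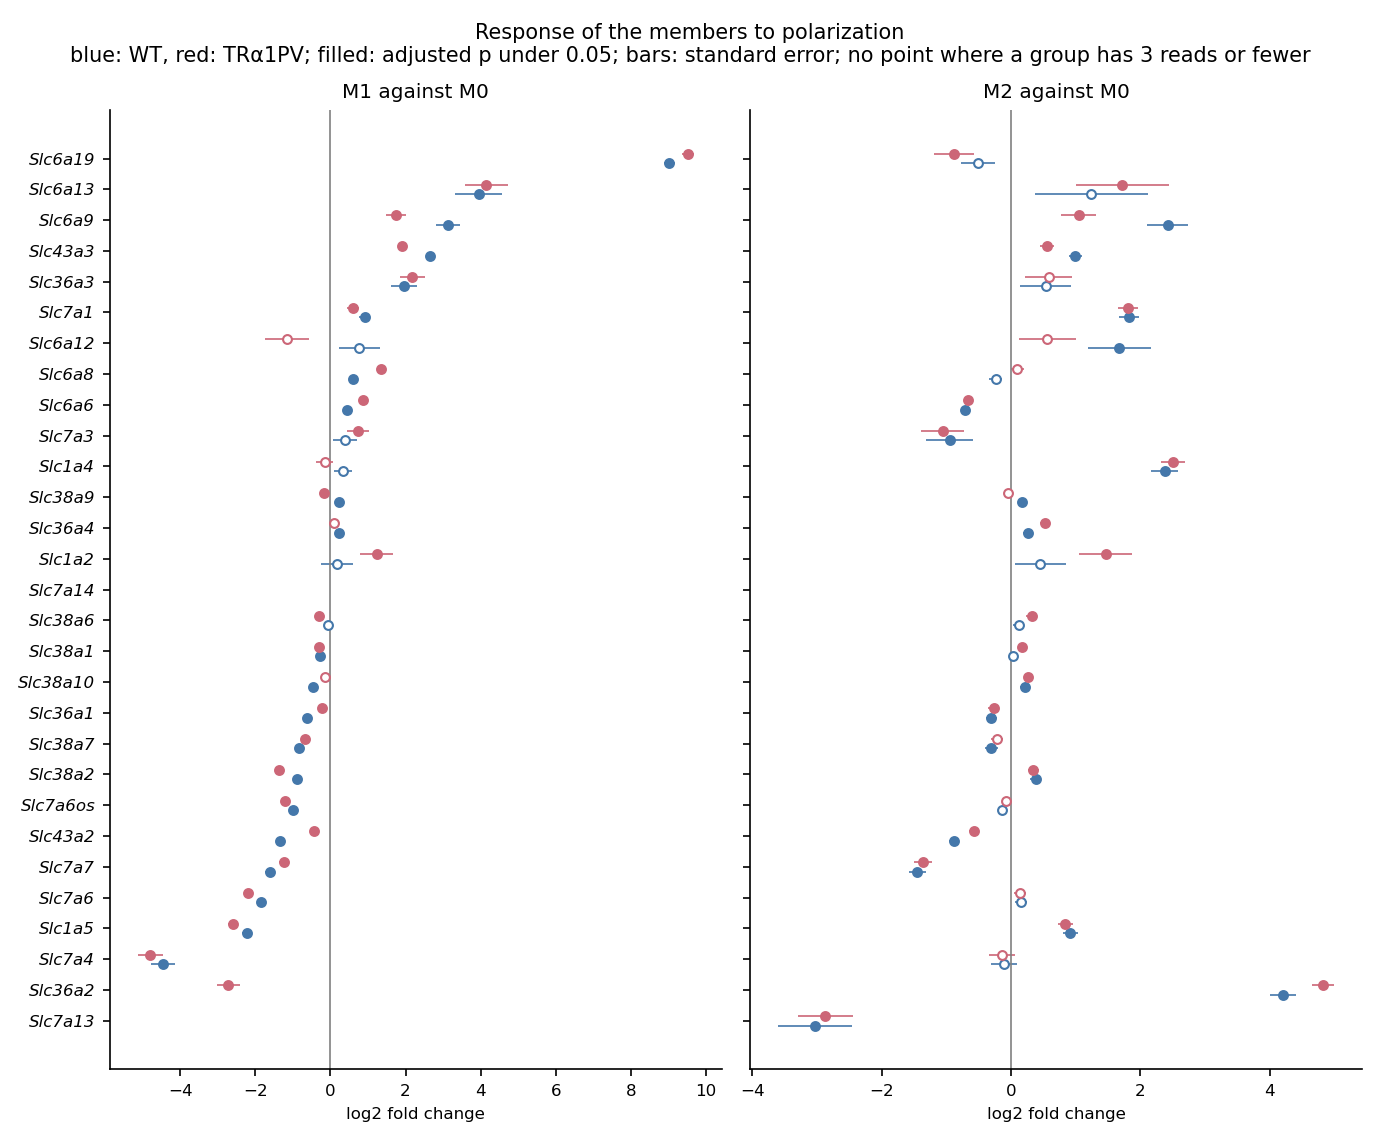
Log2 fold change from M0 (horizontal axes) of tested members (rows) in M1 (left) and M2 (right), in blue for WT and red for TRα1PV, with standard errors as bars and filled points for calls; both panels share the M0 libraries. Slc6a19 lies far right in M1 at 9.03 and 9.51, and Slc36a2, Slc1a4 and Slc7a1 lie right in M2.

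With interleukin-4, Slc36a2, Slc1a4, Slc7a1, Slc1a5 and Slc38a2 rose in both genotypes, and Slc6a6, Slc43a2 and Slc7a7 fell. In WT, 12 of the 30 members were higher and 7 lower in M2 than in M0 (63.3% called, against 52.4% of all genes, 25.2% higher and 27.2% lower). In TRα1PV, 14 were higher and 7 lower (70.0%, against 57.7% of all genes, 28.3% higher and 29.4% lower). The genotypes shared 10 increases (83.3% of the WT list, 71.4% of the TRα1PV list) and 6 decreases (85.7% of each), a sharing that was not counted over all genes. The groups did not overlap for 11 members in WT and 14 in TRα1PV (35.4% and 47.3% of all genes). The median log2 fold change was 0.16 in WT and 0.30 in TRα1PV, and -0.02 over all genes in both.

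Among members with more than 3 reads in each group, Slc36a2 had the most marked increase in M2, by 4.20 ± 0.20 in WT and 4.83 ± 0.17 in TRα1PV (edgeR adjusted p = 4.05e-17 and 2.02e-20), 18.4-fold and 28.4-fold. All M2 libraries given above were higher than all M0 libraries. Slc1a4 rose by 2.38 ± 0.21 and 2.50 ± 0.19 (edgeR adjusted p = 3.58e-11 and 8.03e-13), also without overlap. Its RefSeq promoter window (GRCm38.p6, chr11:20332664-20332963, minus strand) is shown because it carries, at base -4, a match to TGATGNAA, the core of the site that ATF4 binds with C/EBP factors in amino acid response genes. The match lies on the reverse strand, so the capitals read TTGCATCA, and 3.97% of all windows hold this motif.
Slc1a4: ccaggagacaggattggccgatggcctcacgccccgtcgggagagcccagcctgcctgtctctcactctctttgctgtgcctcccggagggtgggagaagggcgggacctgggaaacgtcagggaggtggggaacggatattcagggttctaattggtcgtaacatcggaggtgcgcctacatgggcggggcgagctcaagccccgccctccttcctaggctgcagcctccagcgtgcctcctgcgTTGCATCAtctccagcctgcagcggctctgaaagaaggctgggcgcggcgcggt
Slc7a1 held 26.9, 32.003, 29.4, 35.98 and 36.2 CPM in WT M2 and 31.6, 35.6, 26.6, 38.3 and 39.7 CPM in TRα1PV M2. Each M2 library exceeded all M0 libraries of its genotype (1.82 ± 0.15 and 1.81 ± 0.15, edgeR adjusted p = 1.19e-11 and 7.52e-12).

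Slc1a5 and Slc38a2, which fell in M1, were higher in M2, unlike the glutamine carrier gene Slc38a7. Slc1a5 rose by 0.92 ± 0.11 in WT and 0.84 ± 0.11 in TRα1PV (edgeR adjusted p = 5.31e-08 and 1.95e-07), without overlap with M0. Slc38a2 held 67.9, 73.8, 79.6, 96.1 and 80.8 CPM in WT M2 and 77.9, 80.4, 69.4, 90.3 and 90.3 CPM in TRα1PV M2. It rose by 0.39 ± 0.08 and 0.34 ± 0.08, with groups that overlapped M0. Slc43a3 held 11.8, 13.2, 12.04, 12.3 and 12.3 CPM in WT M2 and 11.6, 12.9, 13.4, 14.3 and 12.3 CPM in TRα1PV M2. It was above M0 in every library (1.00 ± 0.11 and 0.56 ± 0.10, edgeR adjusted p = 2.49e-09 and 2.31e-05). Slc6a9 rose by 2.43 ± 0.32 and 1.05 ± 0.27, Slc36a4 by 0.26 ± 0.08 and 0.52 ± 0.08, and Slc38a10 by 0.21 ± 0.07 and 0.27 ± 0.07. Without WT M0 replicate 2 the Slc38a10 increase in WT was lost (edgeR adjusted p = 0.0502). With the covariate it was lost in both genotypes, at 0.10 in WT (edgeR adjusted p = 0.266) and 0.12 in TRα1PV (0.218). Slc7a14 went from no read in WT M0 to 23 reads in WT M2, at least 8.95-fold higher, and from 3 to 118 reads in TRα1PV, a ratio of 49.2 (95% exact interval 16.4 to 242, counting error only). This gene passed the filter through TRα1PV M2 alone.

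Increases called in 1 genotype alone were Slc38a9 (0.17 ± 0.06) and Slc6a12 (1.68 ± 0.48) in WT, and Slc1a2 (1.47 ± 0.41), Slc38a1 (0.17 ± 0.05), Slc38a6 (0.32 ± 0.08) and Slc6a13 (1.73 ± 0.72) in TRα1PV. The Slc38a9 call ended without WT M0 replicate 1 (0.0548) or 4 (0.0625) or WT M2 replicate 4 (0.0582). The Slc6a13 call ended without any 1 of TRα1PV M0 replicates 3, 4 and 5 and TRα1PV M2 replicates 2, 3 and 5 (edgeR adjusted p up to 0.116), with no filter (0.0561) or with the covariate (0.12). The Slc1a2 call was lost with the covariate, at 0.75 (edgeR adjusted p = 0.222). Slc38a6 was called in WT too with the covariate (0.29, 0.00259).

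Among the decreases, Slc7a7 held 7.84, 7.70, 11.2, 7.32 and 9.55 CPM in WT M2 and 6.57, 6.37, 7.90, 8.70 and 9.99 CPM in TRα1PV M2. All M2 libraries were below M0 (-1.45 ± 0.14 and -1.36 ± 0.14, edgeR adjusted p = 2.4e-10 and 5.63e-10). Slc43a2 (-0.88 ± 0.08 in WT and -0.57 ± 0.08 in TRα1PV) and Slc6a6 (-0.71 ± 0.06 and -0.67 ± 0.06) fell too, each without overlap with M0. Slc36a1 held 140.4, 138, 149, 129 and 148 CPM in WT M2 and 137, 129, 128, 132 and 141 CPM in TRα1PV M2. It was slightly lower than in M0 (-0.30 ± 0.09 and -0.27 ± 0.09, edgeR adjusted p = 0.00356 and 0.00799), with groups that overlapped. Slc7a13 (-3.03 ± 0.58 and -2.87 ± 0.43) and the cationic carrier gene Slc7a3 (-0.95 ± 0.37 and -1.05 ± 0.33) fell at group means under 1 CPM. Slc7a13 had at most 11 reads in an M2 library and passed the filter through M0 libraries alone, so its direction is bound to the filter. The WT call of Slc7a3 ended without WT M0 replicate 1 or 5 or WT M2 replicate 1 or 4 (edgeR adjusted p up to 0.0989), with no filter (0.0552) or with the compared groups alone (0.0692). Slc38a7 fell in WT (-0.30 ± 0.10, edgeR adjusted p = 0.00988) and stood at -0.22 ± 0.10 in TRα1PV (0.0528). The TRα1PV value was called with the covariate (-0.39, edgeR adjusted p = 0.00312), the compared groups alone (0.0127), limma-voom (0.0463), the block (0.0458) and without TRα1PV M2 replicate 4 (0.0274). Slc6a19 held 0.166, 0.407, 0.372, 0.2998 and 0.564 CPM in WT M2 and 0.109, 0.0281, 0.296, 0.171 and 0.247 CPM in TRα1PV M2. Its decrease was called in TRα1PV (-0.88 ± 0.31, edgeR adjusted p = 0.0163) and not in WT (-0.51 ± 0.26, 0.0983), and the call ended without TRα1PV M0 replicate 1 (0.0561) or TRα1PV M2 replicate 2 (0.0578) or with TRα1PV M0 and M2 alone (0.0779). The WT decrease was called without WT M0 replicate 2 (-0.62, edgeR adjusted p = 0.047) or WT M2 replicate 5 (-0.76, 0.023), and the difference between the genotypes was -0.36 ± 0.41 (0.878). Slc7a4, Slc7a6, Slc7a6os, Slc6a8 and Slc36a3 were not called in M2 in either genotype. Of these, Slc6a8 was called lower in WT with the covariate (-0.38, edgeR adjusted p = 0.00283), with the block (0.0495) and without WT M0 replicate 2 (0.00312) or WT M2 replicate 3 (0.0253). Slc7a4 was called lower in both genotypes with the covariate (-0.56 in WT, edgeR adjusted p = 0.0167, and -0.75 in TRα1PV, 0.00379). Slc36a3 was called higher in WT without WT M0 replicate 3 (1.17, edgeR adjusted p = 0.023). Slc7a6os was called lower in WT by DESeq2 (-0.14, DESeq2 adjusted p = 0.0317), limma-voom (0.0378), the block (0.0473) and without WT M0 replicate 1 (0.0189).

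Beside these M2 changes, granulocyte markers were lower than in M0 for 6 of 11 tested in WT and higher for 1 and lower for 5 in TRα1PV, and inflammatory monocyte markers summed to 73.996 to 118 CPM in WT M2 against 503 to 589.7 CPM in WT M0. The endothelial list summed to 471 to 541 CPM in WT M2 and 62.02 to 111 CPM in WT M0 (2 of 4 tested higher, 2 lower in each genotype), while Cdh5, which defines endothelium, averaged 0.294 CPM in WT M2. The part of such cells was not tested.

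The genotype effect itself differed between M1 and M0 for 9 of the 30 members. For 5 it was higher in M1 and for 4 lower, while 26.6% of all genes were called (13.3% in each direction). Positive values mean that TRα1PV stood higher relative to WT in M1 than it did in M0, and these tests share the M0 libraries with the M0 comparison. Slc43a2 led, with a difference of 0.89 ± 0.11 (edgeR adjusted p = 2.23e-06): WT lost more of its Slc43a2 with LPS and interferon-γ (-1.34) than TRα1PV did (-0.45). The same direction held for Slc6a8 (0.75 ± 0.14, 0.000481), Slc6a6 (0.43 ± 0.08, 0.000474), Slc36a1 (0.41 ± 0.12, 0.0142) and Slc38a10 (0.33 ± 0.10, 0.0195). The opposite direction held for Slc43a3 (-0.75 ± 0.14, 0.000435), Slc38a9 (-0.40 ± 0.09, 0.00129), Slc38a2 (-0.48 ± 0.12, 0.00509) and Slc6a9 (-1.39 ± 0.41, 0.0146). The Slc38a10 call ended without TRα1PV M1 replicate 1 (0.0536) and the Slc6a9 call without TRα1PV M0 replicate 4 (0.0525), the highest TRα1PV M0 library for that gene. The Slc38a10 call was also lost with no filter (edgeR adjusted p = 0.0562) and with M0 and M1 libraries alone (0.0619). Slc6a12 was called lower by limma-voom (-2.69, adjusted p = 0.0214), by DESeq2 (0.0475) and without WT M0 replicate 3 (0.00682) or TRα1PV M0 replicate 5 (0.0487). With the covariate Slc1a5 (-0.48, edgeR adjusted p = 0.022) and Slc7a6 (-0.42, 0.0297) were called lower, Slc7a6 also without WT M0 replicate 4 (0.0498). Slc7a6os was called lower without TRα1PV M1 replicate 4 (0.0299), WT M0 replicate 2 (0.0344) or WT M1 replicate 3 (0.0391), and Slc36a2 higher without WT M1 replicate 2 (0.0394), the only WT M1 library in which it had a read.

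Between M2 and M0 edgeR called no member for a difference of the genotype effect, while 2.16% of all genes were called (0.701% higher and 1.46% lower). At an unadjusted p under 0.05 edgeR had 4 members higher and 3 lower, limma-voom called none at an adjusted p under 0.05, and DESeq2 called Slc6a9 lower (DESeq2 adjusted p = 0.0296). For Slc43a2 the difference was 0.30 ± 0.11 (edgeR adjusted p = 0.169) and for Slc36a2 0.63 ± 0.29 (0.385). Without WT M0 replicate 2 the Slc43a2 difference was called (edgeR adjusted p = 0.0449), and Slc6a9 was called lower without TRα1PV M0 replicate 2 (-1.53, 0.0399) or WT M0 replicate 4 (-1.89, 0.0114).

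Of the 30, 19 had a mean of at least 0 log2 CPM over all libraries and 11 lay below that. Genotype calls fell on 9 of the 19 and 3 of the 11 in M0, on 5 and 1 in M1, and on 8 and 2 in M2, and all decreases lay among the 19. Calls in M1 against M0 fell on 17 of the 19 and 7 of the 11 in WT and on 16 and 9 in TRα1PV. In M2 against M0 they fell on 13 and 6 in WT and on 14 and 7 in TRα1PV, and the changed genotype effect in M1 on 8 and 1. Some genes that lie side by side moved apart and others moved in the same direction. In M1, Slc36a1 and Slc36a2 both fell in both genotypes, as did Slc7a6 and Slc7a6os. On chromosome 11 in M2, Slc36a2 rose, Slc36a1 fell and Slc36a3 was not called (0.54 ± 0.40 in WT and 0.58 ± 0.37 in TRα1PV), and on chromosome 15 in M1 Slc38a1 changed by -0.28 and Slc38a2 by -0.90 in WT. The neighbour pairs come from GENCODE M21.

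The 28 untested members were close to silent, and 11 of them had no read in any library: Slc1a7, Slc38a3, Slc38a4, Slc38a5, Slc6a2, Slc6a7, Slc6a11, Slc6a14, Slc6a16, Slc7a9 and Slc7a12. They include carriers known from neurons and epithelia, such as the noradrenaline transporter gene Slc6a2 and the gut and kidney cystine carrier gene Slc7a9. The other 17 reached at most 15 reads in a library. Their highest counts were 15 for Slc6a20b, 12 for Slc1a1, 8 for Slc6a17, 7 each for Slc43a1 and the serotonin transporter gene Slc6a4, 6 for Slc6a5, 5 each for Slc1a3 and Slc6a20a, 3 each for Slc6a21 and Slc7a15, 2 each for Slc38a11, Slc6a15, Slc6a18 and the dopamine transporter gene Slc6a3, and 1 each for Slc1a6, Slc38a8 and Slc7a10. Slc6a20b shares 1800 of its 8538 exonic bases with Sacm1l on the opposite strand, which held 96834 reads, so its few reads are uncertain. Among tested members, exons overlap on the opposite strand between Slc6a9 and Ccdc24 (1429 of 5141 bases, 11 reads for Ccdc24 and 1189 for Slc6a9), Slc7a4 and P2rx6 (554 of 4153 bases, 518 and 1866 reads) and Slc38a10 and Gm11769 (367 of 6421 bases, 1145 and 133427 reads).

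Promoter windows were at hand for 20 of the 30 tested members, 35 windows in all. The κB motif was found in 5 of these 20 genes (Slc36a4, Slc43a2, Slc6a12, Slc6a13 and Slc7a7), the STAT6 site in 2 (Slc43a2 and Slc6a19), TGATGNAA in 2 (Slc1a4 and Slc7a7) and CACGTG, the E-box bound by lysosomal gene regulators, in 3 (Slc36a1, Slc38a7 and Slc7a14; 7.15% of all windows). AGGTCA was found in 5 (Slc1a2, Slc36a1, Slc6a12, Slc6a13 and Slc7a7), and the interferon regulatory factor core and the full thyroid element in none. Some genes held several windows, so these gene counts are not comparable with the shares of all windows. By window, the κB motif was in 6 of the 35, the STAT6 site in 2, TGATGNAA in 3, CACGTG in 3 and AGGTCA in 5. AGGTCA is contained in the full element.

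The transporters' partners and the 4 SLC7 genes left out of the group moved as follows. For this and the other lists below, the shares called over all genes were 26.0%, 20.0% and 13.1% between genotypes in M0, M1 and M2, and 52.4% in WT and 57.7% in TRα1PV with interleukin-4. Slc3a2, the shared heavy chain gene, stood at 248 ± 25.9 CPM in WT M0 and 525 ± 49.7 CPM in WT M1 (1.08 ± 0.07 in WT and 1.53 ± 0.07 in TRα1PV), and was lower in TRα1PV in M0 (-0.26 ± 0.07, edgeR adjusted p = 0.00808). Slc7a2, which encodes the inducible arginine carrier CAT2, was higher in TRα1PV in M2 (496 ± 49.99 against 275 ± 25.5 CPM, 0.85 ± 0.11, edgeR adjusted p = 2.33e-06). Slc7a8 was higher in all 3 states (0.22, 0.31 and 0.30), Slc7a5 was higher in M0 (0.78) and M1 (0.62), and Slc7a11, the cystine carrier gene, was lower in TRα1PV in M1 (-0.99 ± 0.23, edgeR adjusted p = 0.00233). Of 17 tested carriers of amino acids and peptides from other families and their partners (Slc3a2 among them), 1 was higher and 8 were lower in TRα1PV in M0, 1 and 2 in M1, and 1 and 4 in M2. The aspartate and glutamate carrier gene Slc25a13 was lower in all 3 (-0.62 ± 0.07, -0.32 ± 0.07 and -0.28 ± 0.07), and the histidine and peptide carrier gene Slc15a3 in M0 (-0.58 ± 0.08) and M2 (-0.25 ± 0.08).

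Genes that sense amino acids or charge tRNAs with them were counted in the same fit. Of 35 genes of amino acid sensing by mTORC1, 1 was higher and 7 lower in TRα1PV in M0 (Sesn3, a sestrin gene, 0.59, and Castor2, a paralog of the arginine sensor gene Castor1, -0.39), 3 and 4 in M1, and 3 and 2 in M2. Of 20 cytosolic tRNA synthetases, none was higher and 7, 8 and 1 were lower in TRα1PV in M0, M1 and M2, among them Hars1 in M0 (-0.28 ± 0.06) and Iars1 in M1 (-0.58 ± 0.06). With interleukin-4, 15 of the 20 were higher and 1 lower in WT and 16 and 1 in TRα1PV, with the smallest p in both for Iars1 (0.79 and 0.93) and Cars1 (0.93 and 1.04).

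Of 24 tested genes of the amino acid response and of serine, asparagine and proline synthesis, 18 were higher and 3 lower with interleukin-4 in WT, and 16 and 4 in TRα1PV. They included Phgdh, the first enzyme of serine synthesis (3.36 and 2.96), Aldh18a1, the first enzyme of proline synthesis (1.58 and 1.68), and the response regulator gene Atf4 (0.80 and 1.08). Between genotypes, 6 of the 24 were higher in TRα1PV in M1 and none lower, among them Atf5 (0.65 ± 0.13), Cebpb (0.40 ± 0.10) and Atf4 (0.35 ± 0.09); in M0 3 were higher and 2 lower. In M2 edgeR, DESeq2 and limma-voom called none of the 24, and at an unadjusted p under 0.05 edgeR had 1 higher and 1 lower. Of 21 genes of glutamine, arginine and branched-chain amino acid breakdown, 1 was higher and 6 lower in TRα1PV in M0, 3 and 6 in M1, and 1 and 3 in M2, with the aspartate aminotransferase gene Got1 lower in each (-0.67, -0.50 and -0.38). With interleukin-4, 13 of these rose and 2 fell in WT and 14 and 2 in TRα1PV. Glul, the glutamine synthetase gene, fell in both states, from 573 ± 32.4 CPM in WT M0 to 26.5 ± 0.723 CPM in M1 and 215 ± 21.7 CPM in M2.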

How the data were processed

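PolyA RNA of 30 libraries was sequenced. Per the submitters' processing notes the tools were Trimmomatic 0.39, HISAT2 2.2.1, Cufflinks, HTSeq 1.99.2, FastQC 0.11.9, edgeR, limma and R 4.3.2, with build GRCm39 and no stated order. The deposited files hold the authors' raw read counts per gene, whole numbers with no normalization. The sources used here state neither the annotation release nor the strand setting. Rows for reads outside genes were left out of library sizes and tests. These were 8.84% to 14.7% of the reads in genes and outside genes together. The rows for ambiguous, low-quality, unaligned and multiply aligned reads were left out as well.

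Symbols, biotypes, exon lengths and neighbours came from GENCODE M21 and promoter windows from RefSeq, both on GRCm38. A symbol was found for 52081 of 55414 genes. edgeR 4.0.16 in R 4.3.3 fitted a mean per group to all 30 libraries (24 residual degrees of freedom) with trimmed mean of M-values (TMM) factors and the filterByExpr filter (minimum count 10, minimum total 15), which kept 15686 genes. The fit was tested on simulated data. Genes were called at an adjusted p under 0.05 with no minimum fold. A group with no read was set at a floor of 3 reads, and with 1 to 3 reads a ratio with a 95% exact interval was given; both cover counting error only. No 2 libraries of a group agreed within counting noise.

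Members called between genotypes, up to 12 by smallest p, and the 4 strongest rises and falls per state comparison at a mean of at least 0 log2 CPM, were given by library; other tested members were named with their calls, though not in all comparisons with a value. The values of 1 member, which stays in the counts, and 1 motif are not reported here. Members and gene lists were chosen with earlier results of these data known. Alternatives were relative log expression (RLE) factors, DESeq2 1.42.0, limma-voom (limma 3.58.1), no filter, fits of the compared groups alone, a replicate block, each library's fraction of reads outside genes as a term of the model (the covariate below), and omission of each library.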

Additional observations from a re-analysis of the deposited data

Results flagged for a closer look

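In 5 of the 114 sets of 5 libraries screened (each of 19 tested members at a mean of at least 0 log2 CPM, in each of 6 groups), 1 library lay far from the other 4; chance gives about 1 in 20 such sets. Slc38a2 stood at 77.5 CPM in TRα1PV M0 replicate 4, with the others at 59.3 to 63.9 CPM. The arginine carrier gene Slc7a1 stood at 14.3 CPM in the same library, with the others at 8.02 to 9.39 CPM. Slc38a7 stood at 57.9 CPM in TRα1PV M2 replicate 4 (others 48.7 to 50.3 CPM), Slc38a9 at 73.6 CPM in TRα1PV M2 replicate 3 (others 79.6 to 81.2 CPM) and Slc6a8 at 96.2 CPM in WT M2 replicate 3 (others 78.8 to 83.2 CPM).

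The genotype effect differed between M1 and M0 for 9 members, by the test of the difference itself in edgeR. On the log2 scale it was higher in M1 for Slc43a2 (0.89, adjusted p = 2.23e-06), Slc6a8 (0.75, adjusted p = 0.000481), Slc6a6 (0.43, adjusted p = 0.000474), Slc36a1 (0.41, adjusted p = 0.0142) and Slc38a10 (0.33, adjusted p = 0.0195). By the same edgeR test it was lower in M1 for Slc6a9 (-1.39, adjusted p = 0.0146), Slc43a3 (-0.75, adjusted p = 0.000435), Slc38a2 (-0.48, adjusted p = 0.00509) and Slc38a9 (-0.40, adjusted p = 0.00129).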

How the results depend on the processing

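Of 270 values (30 members in 9 comparisons), RLE factors changed no call, the replicate block lost 0 and gained 6, limma-voom lost 1 and gained 6, no filter lost 5, the compared groups alone lost 10 and gained 5, and the covariate lost 12 and gained 15. DESeq2 lost none and gained 6 of the 256 values to which it gave an adjusted p. A call left without a DESeq2 adjusted p was not counted as lost. Between genotypes in M2, DESeq2 called 4 members higher, against 5 in the main fit. Leaving out each library lost 58 and gained 34 of 3300. Only calls of the main fit can be lost, which were 126 of the 270, 125 of the 256 for DESeq2 and 1350 of the 3300. With the compared groups alone, 3 members rather than 6 were lower in TRα1PV M0. With the covariate, 4 rather than 2 were higher and 7 rather than 4 lower in TRα1PV M1. DESeq2 called 1 member lower, against 0, for the difference of the genotype effect between M2 and M0. The M1 change of Slc38a9 in TRα1PV turned from -0.17 to 0.00101 with the covariate (edgeR adjusted p = 0.989). The cause was not tested. Leaving out 1 library gave 1 to 3 members higher in TRα1PV M1, 3 to 5 lower in TRα1PV M2, and 0 to 1 in either direction for the difference between M2 and M0.

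Over all genes, the compared groups alone called 15.8% against 26.0% in M0 and 25.3% against 13.1% in M2 between genotypes. The covariate called 34.8% against 20.0% in M1, and 3.68% against 2.16% for the difference between M2 and M0, where DESeq2 called 3.55%. Without the filter more genes were tested and the share fell, to between 0.890% and 47.5%. The replicate numbers were not treated as pairs: correlations of same-numbered libraries ranged from -0.37 to 0.33, and were highest on average between TRα1PV M0 and M2 (0.184, with 4 of 5 best with their own number), and the block changed no count of members past 1.5 times.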
